A study of Mus musculus with 21 samples.

Results

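The regions described here are places in the mouse genome where Foxa3 was bound both in hepatocyte-like (iHep) cells and 48 hours after infection, and where neither Foxa1 nor Foxa2 had a peak at either stage. They were found by pooling the 6 Foxa peak lists of the series (iHep and 48 hours, Foxa3, Foxa2 and Foxa1) and merging peaks that overlapped by at least 1 bp. Of 29339 merged regions 4003 (13.6%) met the rule. A further 131 regions had a peak in both Foxa3 lists but also a Foxa1 or Foxa2 peak, so 96.8% of the 4134 regions with Foxa3 at both stages were held by Foxa3 alone. Most regions with Foxa3 at a single stage were alone too, with 6908 such Foxa3-alone regions in iHep cells only and 1359 at 48 hours only. The regions without any Foxa3 peak numbered 16677. Lack of a Foxa1 or Foxa2 peak was thus not particular to the lasting regions. The members were chosen by the presence and absence of Foxa peaks, so their Foxa peak numbers, scores and widths are descriptions and not tests.

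Foxa1, Foxa2 and Foxa3 are forkhead transcription factors with closely related DNA-binding domains, known in the liver as pioneer factors that bind their sites in compact chromatin and help other factors to reach them. Hnf4a is a nuclear receptor that binds DNA as a homodimer and drives many hepatocyte genes. Forced expression of Hnf4a with any of the 3 Foxa proteins turns mouse fibroblasts into iHep cells, which carry features of hepatocytes.

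Binding was mapped by ChIP-seq, the sequencing of DNA recovered with an antibody against a protein, in C57BL/6 mouse embryonic fibroblasts, prepared from embryos at 13.5 days post coitum and infected with retroviruses. All groups used here received Hnf4a: the Foxa3 line received Foxa3 and Hnf4a, the Foxa2 line Foxa2 and Hnf4a, and the Foxa1 line Foxa1 and Hnf4a. Each combination of factors, called a line here, was sampled as iHep cells and at 48 hours after infection, with 1 Foxa and 1 Hnf4a library at each stage. In the titles the iHep samples of the Foxa3 line carry the number 3, and its 48-hour samples and both stages of the other lines the number 1. The titles do not say whether both stages come from the same infection. Lasting therefore means a peak in both lists, not a site followed in the same cells. Each Foxa protein had a separate antibody and a separate line, so protein, antibody and line cannot be told apart. The label for cell type reads mouse embryonic fibroblasts at both stages. The list for the Foxa3 del2 mutant, tagged with Ty1 and infected together with Hnf4a, has a 48-hour title but an iHep stage label; it held 1 peak, which lay in no member and 10478 bp from the nearest one.

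The iHep Foxa lists held 12661 peaks for Foxa3, 10330 for Foxa2 and 3435 for Foxa1, and the 48-hour lists 5690, 6827 and 6781 in the same order of proteins. The narrowest peak was 166 bp in the iHep Foxa3 list, against 334 bp in the 48-hour Foxa3 list and 310 to 326 bp in the 4 lists of Foxa1 and Foxa2. The lists give no read counts, so the depth of the libraries is unknown. With 1 library per group there is no replicate spread and no p-value. Shares carry a 95% Wilson interval that covers counting error only, and neighbouring regions are not independent. The files hold no sequence and no expression values, so the sequence under the members and markers of the cells were not analysed here.

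Lasting Foxa3-alone regions made up most of the 48-hour Foxa3 list and a smaller share of the longer iHep list. They contained 5353 of the 12661 iHep Foxa3 peaks (42.3%) and 4076 of the 5690 48-hour Foxa3 peaks (71.6%). The share was higher among stronger peaks in both lists. With each list cut by score into 4 groups of nearly equal size, it was 19.6%, 33.3%, 47.6% and 68.5% from the lowest to the highest group of the iHep list. In the 48-hour list it was 56.5%, 66.0%, 79.3% and 84.7%. Among the 100 highest scoring peaks, 89 of the iHep list and 80 of the 48-hour list lay in members.

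The score is the authors' own value for each peak, and no label or header states its formula. It is used only to order peaks within a list. The median iHep Foxa3 peak in a member had a score of 18.6 and stood at percentile 67.3 of its list, against a score of 12.4 and percentile 36.6 for Foxa3-alone peaks found in iHep cells only. The median 48-hour Foxa3 peak in a member had a score of 15.8 and stood at percentile 56.8, against 11.8 and percentile 30.9 for Foxa3-alone peaks found at 48 hours only. Weak peaks were also present among members, with lowest scores of 5.30 in iHep cells and 5.57 at 48 hours.

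**Figure D1:**
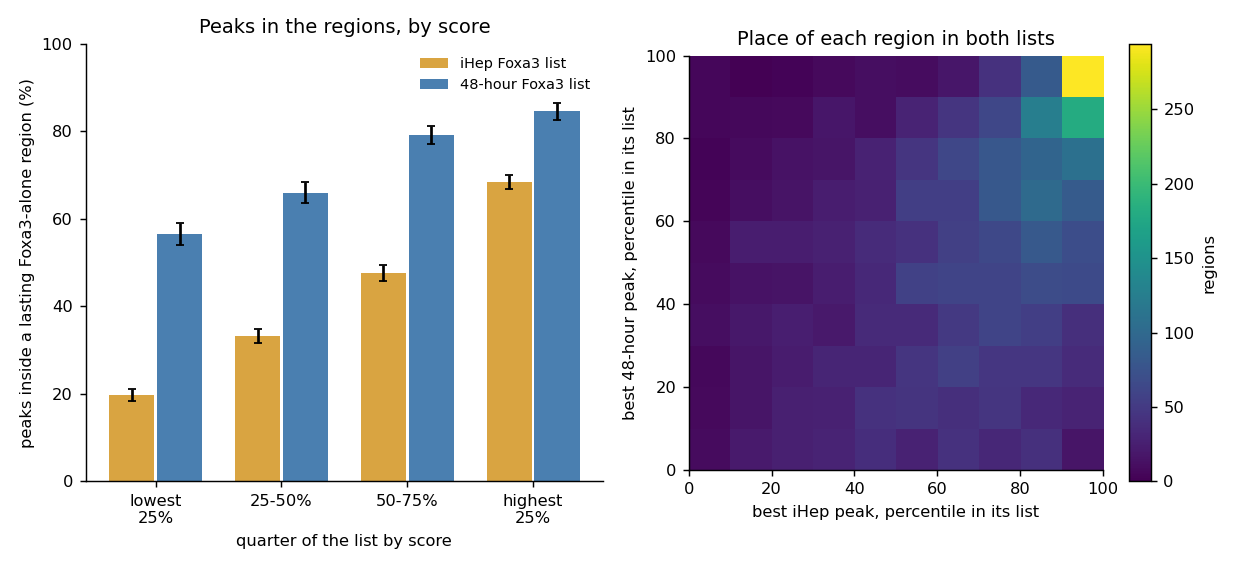
Left, share of peaks inside a lasting Foxa3-alone region (percent, bars with 95% Wilson intervals) by score group (4 groups, low to high) of the iHep and the 48-hour Foxa3 list. The share climbs in both lists, to 68.5% of the highest iHep group and 84.7% of the highest 48-hour group. Right, number of regions (colour) by the percentile of the region's best iHep peak (x axis) and best 48-hour peak (y axis); the fullest cell, with 294 regions, is the upper right corner.

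The order of members by score was shared between the stages only in part. Spearman's rho between the best iHep score and the best 48-hour score of a region was 0.42 over the 4003 members, given as a description because regions share 2 libraries. The best peak was in the highest scoring 25% of the iHep list for 1983 members and of the 48-hour list for 1200. With these unequal totals many of the 1983 could not be in both. Both held for 877 members, which is 44.2% of the members in the highest iHep 25%, beside 30.0% of all members in the highest 48-hour 25%. The lowest 25% of a list held the best peak of 276 members in iHep cells and of 763 at 48 hours. In 217 members the best iHep peak was in the highest and the best 48-hour peak in the lowest 25% of its list, and in 26 members it was the other way round, counts that rest on these unequal totals. A further 99 members were in the lowest 25% at both stages.

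The 5 members with the best summed rank in the 2 lists show the strong end (all positions are mm9, first base counted as 1). The first was chr11:101502491-101504684, with a score of 82.3 (rank 10) in iHep cells and 494 (rank 5) at 48 hours. Another member on the same chromosome, chr11:101519210-101520701, had scores of 65.8 (rank 29) in iHep cells and 479 (rank 8) at 48 hours. Both held a 48-hour Hnf4a peak of the Foxa2 line and the first also an iHep Hnf4a peak of the Foxa1 line, while neither held an Hnf4a peak of the Foxa3 line at either stage.

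The other 3 were broad. The widest member, chr19:5793849-5804144, was 10296 bp long and formed by 1 peak at each stage, of 10265 bp in iHep cells (score 89.0, rank 6) and 10276 bp at 48 hours (score 207, rank 30). The next widest, chr19:5837310-5846179, held 5 iHep peaks inside 8870 bp, of which the strongest ranked 4, over a single 48-hour peak of 8620 bp that ranked 32. At chr5:143663104-143668853 the direction was reversed, with 1 iHep peak of 5750 bp over 3 48-hour peaks. Each of these 3 regions held an iHep Hnf4a peak of the Foxa3 line. The third widest member, chr1:164147483-164155966, was unlike them: a 48-hour peak of 8484 bp (rank 79) met 1 iHep peak of 364 bp near the bottom of its list (rank 11840).

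Inside members the iHep peaks were narrower and more numerous than the 48-hour peaks. The median member spanned 697 bp, with the middle 50% between 502 and 968.5 bp. Foxa3-alone regions found in iHep cells only spanned a median of 224.5 bp, those found at 48 hours only 455 bp, and the 881 core regions, which had a peak in each of the 4 Foxa1 and Foxa2 lists and none of Foxa3, 636 bp. Inside members the median peak was 306 bp in iHep cells and 567.5 bp at 48 hours. The whole Foxa3 lists differed in the same direction, so this was not particular to members. Their median peaks were 248 bp in iHep cells and 538 bp at 48 hours, with 12661 and 5690 peaks.

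Most members, 2799 of 4003 (69.9%), consisted of 1 iHep and 1 48-hour peak. In 1178 members (29.4%, interval 28.0% to 30.9%) there was more than 1 iHep peak, and in 69 (1.72%) more than 1 48-hour peak. The most common split was 2 iHep peaks over 1 48-hour peak, in 1000 members, followed by 3 over 1 in 122. The reverse, fewer iHep than 48-hour peaks, was found in 28 members. At most 6 iHep peaks fell in 1 member, chr12:56587800-56594261, where the strongest iHep peak ranked 90 and the stronger of 2 48-hour peaks ranked 51. The member with the next best summed rank among those with 5 iHep peaks, after the chromosome 19 region above, was chr13:21900655-21904389, where 1 48-hour peak of 3735 bp (rank 44) lay over all 5.

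Such splitting was rare in the lists of the other Foxa proteins. Of the 1992 regions with Foxa2 at both stages and no Foxa3 peak, 4 (0.201%) held more than 1 iHep Foxa2 peak, and of the 2008 such regions for Foxa1, 6 (0.299%) held more than 1 iHep Foxa1 peak. The share of split members followed the width of the 48-hour peaks. With members cut into 4 groups by the length covered by 48-hour peaks, it was, from the shortest to the longest, 6.39%, 16.6%, 34.8% and 59.9%. Part of this rise follows from the rule, since a longer 48-hour peak can join more separate iHep peaks into 1 member. The narrow minimum width of the iHep Foxa3 list goes together with the frequent splitting of members, and its part was not tested. The share also depended on how peaks were joined: it was 50.3% when peaks within 500 bp were merged, 20.4% when an overlap had to cover 50% of the shorter peak, and 11.04% when all Foxa lists were reduced to the 3435 strongest peaks.

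Where 2 iHep peaks met 1 48-hour peak, they sat on its sides. In 928 of the 1000 regions (92.8%, 91.0% to 94.2%) the iHep centres lay on opposite sides of the 48-hour centre. The lower one was a median of -248 bp and the upper one 249 bp from it. The 2 iHep peaks were separated by a median gap of 141 bp, and in 434 regions (43.4%) the 48-hour centre fell inside that gap. In 278 regions (27.8%) the iHep pair reached past both ends of the 48-hour peak. Part of this arrangement follows from the rule, since 2 peaks that do not overlap each other but both touch the same other peak tend to lie on either side of it.

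With 1 peak at each stage the iHep centre was found about as often on either side. It had the higher coordinate in 1414 of 2799 regions (50.5%, 48.7% to 52.4%), and the median absolute offset was 91 bp. The iHep peak was the narrower one in 2089 (74.6%) and lay wholly inside the 48-hour peak in 1296 (46.3%). The 48-hour peak lay wholly inside the iHep peak in 226 (8.07%). Over all members, 75.6% (74.2% to 76.9%) had an iHep and a 48-hour centre within 200 bp of each other, 25.3% had them within 50 bp, and in 92 members (2.30%) no pair of centres came within 500 bp.

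**Figure D2:**
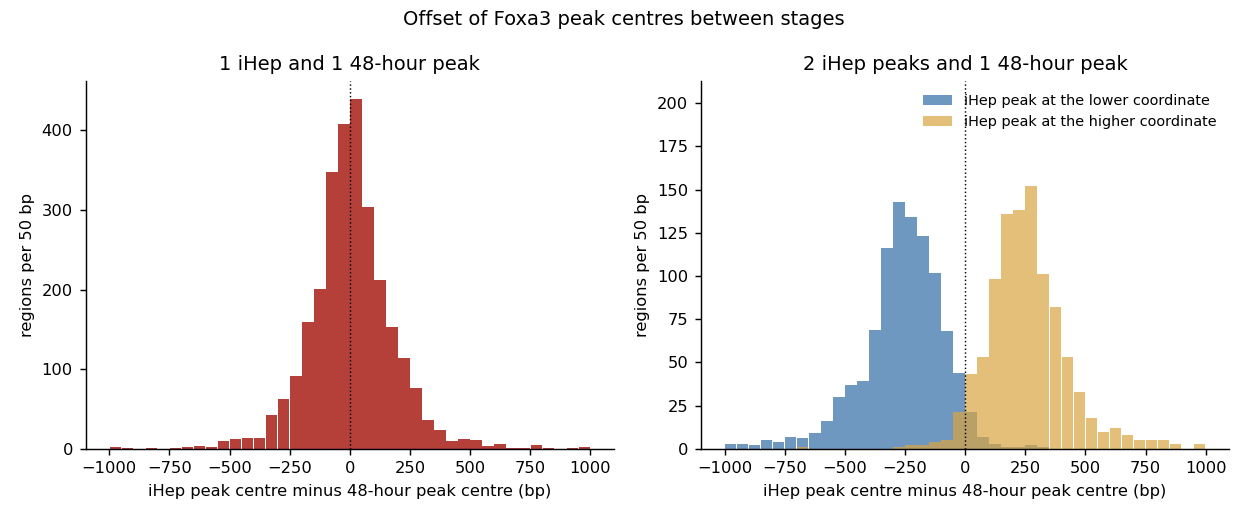
Number of lasting Foxa3-alone regions per 50 bp of distance between the iHep and the 48-hour peak centre (x axis, bp; negative values are at lower coordinates; offsets beyond 1000 bp are not drawn). Left, the 2799 regions with 1 peak at each stage give a single hump at 0. Right, the 1000 regions with 2 iHep peaks and 1 48-hour peak give 2 humps, with medians of -248 bp and 249 bp.

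Few members sat at the edge of the rule. The largest overlap between the stages was at most 10 bp in 12 members and at most 50 bp in 34. The smallest was 1 bp, at chr17:33391871-33392442, where an iHep peak of 167 bp (score 16.9) and a 48-hour peak of 406 bp (score 10.2) shared that base. The next smallest was 5 bp, at chr14:22804205-22804881, with scores of 10.6 and 10.8. Just outside, 2 Foxa3-alone regions found at 48 hours only had an iHep-only region at a gap of at most 10 bp, and 25 at a gap of at most 50 bp. On the side of the other proteins, 6 members had a Foxa1 or Foxa2 peak at a gap of at most 50 bp and 123 within 1 kb. The closest was 3 bp away, beside chr19:23215731-23216503. Among the 131 Foxa3 regions left out for a Foxa1 or Foxa2 peak, the overlap was at most 50 bp in 10.

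Members were spread along the genome, with iHep-only Foxa3 regions close to many of them. The median gap to the next member was 63559 bp, and 395 members (9.87%) had another within 1 kb. An iHep-only Foxa3-alone region lay within 500 bp of 1110 members (27.7%), while a 48-hour-only one lay that near to 88 (2.20%). These groups differ in number, with 6908 iHep-only and 1359 48-hour-only regions. Seen from the other regions, 18.4% of the iHep-only and 6.33% of the 48-hour-only Foxa3-alone regions had a member within 500 bp. Another region of the same kind lay that near to 38.3% of iHep-only regions, 14.2% of 48-hour-only regions and 8.29% of members. A close iHep-only region was thus not particular to members. The median distance to the nearest Foxa1 or Foxa2 peak was 46940 bp for members, 33219 bp for iHep-only regions and 46082 bp for 48-hour-only regions.

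Chromosome 11 held the most members, 366 (9.14%), against 8.84% of iHep-only and 8.02% of 48-hour-only Foxa3-alone regions and 4.52% of the 16677 regions with Foxa1 or Foxa2 and no Foxa3 peak. Chromosome 17 also held a larger share of members (5.80%) than of the regions without Foxa3 (3.02%), as did chromosome 7 with 7.32% and 4.30%. On these chromosomes 1 of the single-stage groups was higher still, the iHep-only regions on chromosome 17 (6.04%) and the 48-hour-only regions on chromosome 7 (8.54%). Chromosome 1 ran the other way, with 5.60% of members and 7.76% of the regions without Foxa3. The X chromosome held 58 members (1.45%).

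When members with gaps of up to 10 kb were joined, 3197 stood alone, 286 runs held 2 and 45 runs held 3. There were 4 runs of 8 or more, with 8, 12, 13 and 15 members. The longest, chr4:88402951-88452039, was also the most evenly spaced of the 3 longest. Its 15 members were 642 to 952 bp wide, and 13 of the 14 distances between neighbouring 48-hour peak centres lay between 2770 and 3063 bp. The remaining distance was 10295.5 bp. This regularity was noticed after the values were seen, and the sequence there was not analysed. No member of this run held an iHep Hnf4a peak of the Foxa3 line, while 9 held an iHep Hnf4a peak of the Foxa2 line and 4 one of the Foxa1 line.

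The next run, chr13:23622441-23678020, had 13 members, 784 to 1960 bp wide and unevenly spaced, with 34 iHep and 13 48-hour Foxa3 peaks in its span and no Hnf4a peak in the iHep lists. The third, chr19:5821375-5849627, packed 12 members into 28253 bp and includes the broad chromosome 19 region with 5 iHep peaks. In it 1 member held Hnf4a peaks, from the iHep Foxa3 line. Without these 3 runs the share of members with an iHep Hnf4a peak was 9.99% for the Foxa3 line, 2.32% for the Foxa2 line and 1.69% for the Foxa1 line, close to the shares over all members given next.

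**Figure D3:**
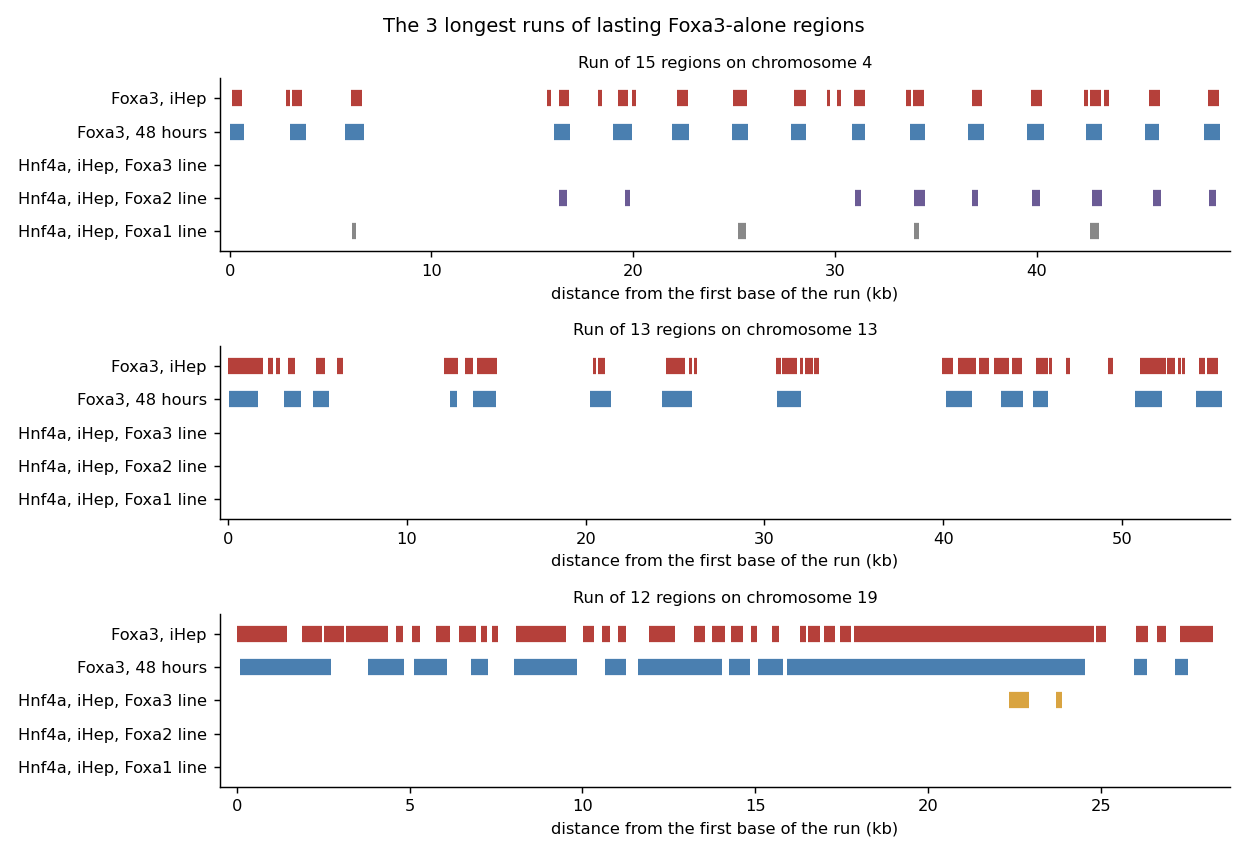
Peaks (blocks) in the 3 longest runs of members, against the distance from the first base of each run (x axis, kb), for iHep Foxa3, 48-hour Foxa3 and the iHep Hnf4a lists of the Foxa3, Foxa2 and Foxa1 lines. The chromosome 4 run repeats at a near constant distance with a median of 2924.5 bp between 48-hour centres and carries Hnf4a peaks of the Foxa2 and Foxa1 lines; the others are irregular and carry at most 2 Hnf4a peaks.

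Hnf4a was mapped with a separate antibody and did not enter the rule. About 1 in 10 members held an Hnf4a peak in the iHep cells of the Foxa3 line itself, and far fewer did in the iHep cells of the other lines. The count was 397 of 4003 (9.92%, 9.03% to 10.9%) in the Foxa3 line. It was 101 (2.52%, 2.08% to 3.06%) for Hnf4a of the Foxa2 line, and for the Foxa1 line 71 (1.77%, 1.41% to 2.23%). Over all 29339 merged Foxa regions the shares were 3.80% for Hnf4a of the Foxa3 line, 2.76% for the Foxa2 line and 2.02% for the Foxa1 line. By raw overlap the members thus stood above the share of all regions in the Foxa3 line and near it in the other lines. Per length of region they held 142 Hnf4a peaks per Mb of the Foxa3 line, against 85.3 over all regions. For the other lines they were below all regions per length, with 29.8 against 53.8 for the Foxa2 line and 21.0 against 39.9 for the Foxa1 line. The Hnf4a lists of the Foxa3 and Foxa2 lines were of similar length, with 2506 and 2485 peaks, and that of the Foxa1 line held 1580. The iHep Foxa3 and Hnf4a libraries of the Foxa3 line share the title code R170, and the Hnf4a libraries of the other lines carry R242 and R225, so line and code cannot be told apart. The 48-hour libraries of the Foxa3 line carry R209, so stage and code cannot be told apart either.

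At 48 hours Hnf4a peaks were scarce at members and in the lists as a whole. In 6 members (0.150%) lay a 48-hour Hnf4a peak of the Foxa3 line, 15 (0.375%) had one of the Foxa2 line and 9 (0.225%) one of the Foxa1 line, beside 0.160%, 0.266% and 0.310% of all merged regions in the same order of lines. In the Foxa3 line 5 members (0.125%) held Hnf4a at both stages, beside 0.0818% of all merged regions. These lists had 370, 453 and 418 peaks. At this number of peaks no difference between members and the Foxa3-alone regions of a single stage was detectable in the Foxa3 and Foxa1 lines. In the Foxa2 line the raw overlap was 0.201 points higher at members than at the narrower iHep-only regions (0.00460 to 0.455), but the direction turned per length of region, with 5.02 Hnf4a peaks per Mb in members and 6.96 in iHep-only regions.

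The Hnf4a peaks of the 3 iHep lines met at only part of these members. Any iHep Hnf4a peak was found in 461 members (11.5%, 10.6% to 12.5%), beside 6.12% of all merged regions. The core regions of Foxa1 and Foxa2 were near the members, at 10.1% (8.28% to 12.3%). Lasting Foxa3 regions with a Foxa1 or Foxa2 peak stood at 28.2%, iHep-only regions at 6.83% and 48-hour-only regions at 2.13%. These raw shares compare regions of unlike width. In a fixed window of 1 kb at the region centre, members were above all merged regions for Hnf4a of the Foxa3 line (9.89% against 4.83%). They were below them for the Foxa2 line (2.65% against 3.05%) and the Foxa1 line (1.77% against 2.24%). By raw overlap the Foxa3 line alone supplied the iHep Hnf4a peak in 324 members (8.09%), beside 2.63% of all merged regions. All 3 lines did in 26 (0.650%), beside 0.624%. Of the 397 members with Hnf4a in the Foxa3 line, 73 (18.4%, 14.9% to 22.5%) also had it in another line, beside 30.8% of all merged regions with Hnf4a in the Foxa3 line and 15.3% (12.2% to 19.1%) of such iHep-only regions. Of the members with Hnf4a in the Foxa2 line 56 of 101 (55.4%), and in the Foxa1 line 43 of 71 (60.6%), also had it in the Foxa3 line. In iHep-only regions these shares were 55.8% and 60.6%, and over all merged regions 35.97% and 39.6%. Seen from the Hnf4a lists, 480 of the 2506 iHep Hnf4a peaks of the Foxa3 line (19.2%, 17.7% to 20.7%) lay in members, against 4.06% of those of the Foxa2 line and 4.49% of those of the Foxa1 line. The iHep-only Foxa3-alone regions showed a like pattern, with 16.6% of the Foxa3-line peaks, 3.50% of the Foxa2-line peaks and 3.80% of the Foxa1-line peaks. All merged Foxa regions together took in 1250 of the 2506 peaks of the Foxa3 line (49.9%).

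The iHep Hnf4a peaks of the Foxa3 line in members were of ordinary strength. They stood at a median percentile of 52.4 of their list and were 212 bp wide. Hnf4a peaks outside members and outside iHep-only Foxa3-alone regions stood at percentile 50.2 and were 200 bp wide. In the Foxa2 line these percentiles were 40.2 and 50.4, and in the Foxa1 line 49.5 and 50.4. Members consist only of Foxa3 peaks, so each Hnf4a peak counted in them overlaps at least 1 Foxa3 peak by the rule. Of the 480 peaks of the Foxa3 line, 376 (78.3%) overlapped an iHep and a 48-hour Foxa3 peak, 86 (17.9%) an iHep one only and 18 (3.75%) a 48-hour one only. Their centres lay a median of 171.75 bp from the nearest iHep and 244.5 bp from the nearest 48-hour Foxa3 centre.

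Members were compared with the Foxa3-alone regions found at 1 stage. Hnf4a of the iHep Foxa3 line was more frequent at members than at the 1359 regions found at 48 hours only, where 18 (1.32%, 0.839% to 2.08%) held a peak. The difference was 8.59 percentage points (7.42 to 9.67). At the 6908 iHep-only regions 411 (5.95%, 5.42% to 6.53%) held one, a difference of 3.97 points (2.91 to 5.07). Members are wider than both, and a wider region meets more peaks. In a fixed window of 1 kb at the region centre the shares were 9.89% for members, 9.45% for iHep-only and 2.58% for 48-hour-only regions. The difference then remained 7.32 points (5.99 to 8.52) from the 48-hour-only regions and was 0.440 points (-0.698 to 1.61) from the iHep-only regions. Members and iHep-only regions were thus not shown to differ in windows of equal width. The window was chosen after the overlaps were seen. Per length of region, members held 142 Hnf4a peaks of the Foxa3 line per Mb, iHep-only regions 207 and 48-hour-only regions 28.0.

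Regions with peaks of several Foxa proteins, each mapped in its own line, differed from members in another way. Of the 131 lasting Foxa3 regions that also had a Foxa1 or Foxa2 peak, 35 (26.7%, 19.9% to 34.9%) held an iHep Hnf4a peak of the Foxa3 line. Members minus these regions gave -16.8 points (-25.01 to -9.90). In the fixed window the shares were 9.89% for members and 19.1% for these regions. Their median width was 1225 bp. The 881 core regions of Foxa1 and Foxa2 showed another order of lines, with the lowest share in the Foxa3 line. The share with Hnf4a was 3.18% (2.21% to 4.56%) for the Foxa3 line, against 8.29% (6.64% to 10.3%) for the Foxa2 line and 5.56% (4.23% to 7.28%) for the Foxa1 line. Members exceeded them by 6.74 points (5.10 to 8.11) in the Foxa3 line, while members minus core was -5.76 points (-7.82 to -4.03) for Hnf4a of the Foxa2 line and -3.79 points (-5.54 to -2.38) for that of the Foxa1 line.

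**Figure D4:**
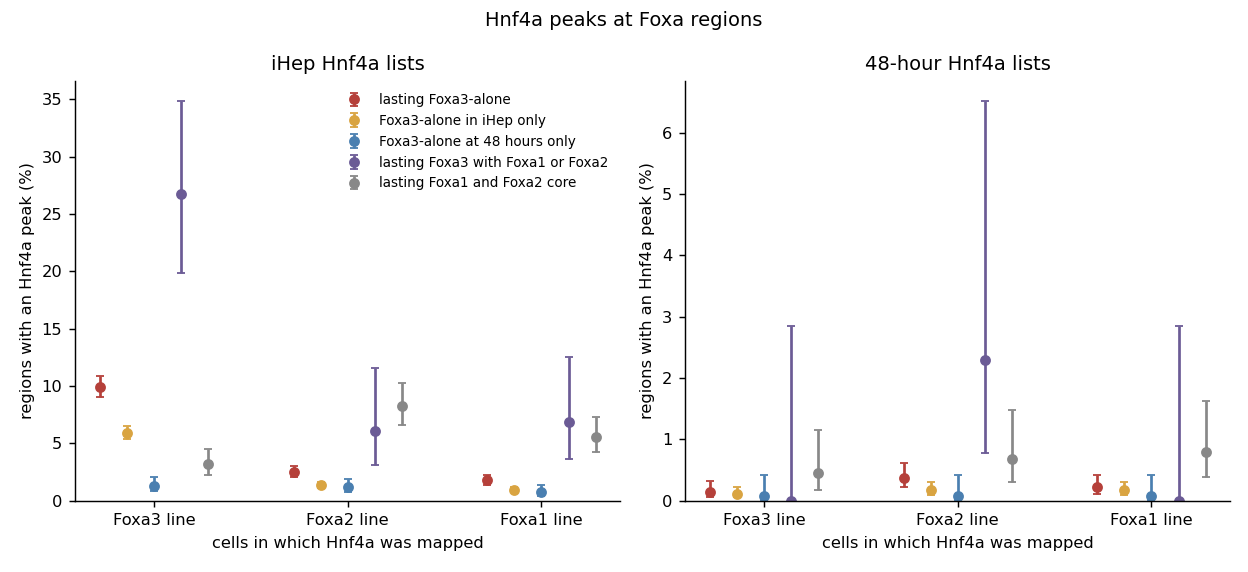
Share of regions with an Hnf4a peak (percent, points with 95% Wilson intervals) in the iHep lists (left) and the 48-hour lists (right) of the 3 lines, for lasting Foxa3-alone regions and 4 other kinds of Foxa region; the y axes differ. In iHep cells members stand at 9.92% in the Foxa3 line and at 2.52% and 1.77% in the Foxa2 and Foxa1 lines, while the Foxa1 and Foxa2 core has its lowest share in the Foxa3 line.

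Members with stronger or wider Foxa3 binding held Hnf4a of the iHep Foxa3 line more often. With members cut into 4 groups by their best iHep peak, the share from the lowest to the highest group was 4.60%, 7.79%, 10.9% and 16.4%, and per length there were 69.0, 128, 148 and 189 Hnf4a peaks per Mb. By best 48-hour peak it was 8.09%, 9.19%, 8.90% and 13.5%, and per length 144, 143, 135 and 146 peaks per Mb. The number per length thus differed across iHep score groups and little across 48-hour score groups, and the difference between these patterns was not tested. By region width the share was 4.20%, 7.09%, 9.50% and 18.9%, and per length 102, 125, 127 and 168 peaks per Mb, a smaller spread. Members with 1 iHep Foxa3 peak held Hnf4a in 8.57%, those with 2 in 12.7% and those with 3 or more in 16.6%, at 142, 148 and 120 peaks per Mb. The rise by iHep score and by width was not particular to the Foxa3 line. From the lowest to the highest iHep score group, the raw share with Hnf4a of the Foxa2 line went from 1.299% to 3.497%. For the Foxa1 line it went from 0.599% to 2.498%. From the narrowest to the widest group these shares went from 1.099% to 4.296% and from 0.799% to 2.997%. Per length, both lines were highest in the third iHep score group, at 39.2 and 26.9 peaks per Mb.

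Placed by the score group of the whole Foxa3 list that held their best peak, members and 48-hour-only regions differed at each level of 48-hour score. In the 1 kb window 9.44%, 9.84%, 9.51% and 10.6% of members held Hnf4a from the lowest to the highest group, against 2.30%, 2.64%, 2.46% and 3.79% of the 48-hour-only regions, and the intervals of all 4 differences lay above 0. Against iHep-only regions at the same level of iHep score, the shares of members were 6.88%, 4.98%, 9.01% and 12.4%, and those of iHep-only regions 8.23%, 9.78%, 9.96% and 11.2%. Only the second of these differences had an interval that left out 0, at -4.81 points (-6.80 to -2.46). Neighbouring windows can share an Hnf4a peak, and 45.6% of iHep-only regions had another of their kind within 1 kb, beside 9.87% of members.

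**Figure D5:**
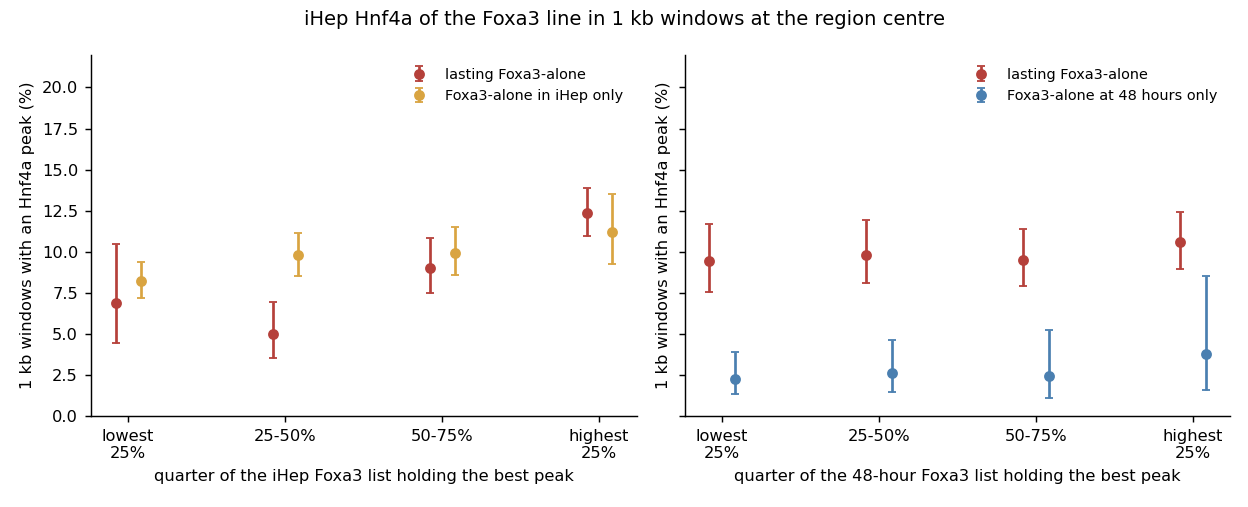
Share of 1 kb windows at the region centre with an iHep Hnf4a peak of the Foxa3 line (percent, points with 95% Wilson intervals), by the score group (4 groups, low to high) of the iHep (left) or 48-hour (right) Foxa3 list that holds the region's best peak. Members stand at 12.4% in the highest iHep group, near the 11.2% of iHep-only regions, and lie above 48-hour-only regions in all 4 of the 48-hour groups.

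The members with peaks in the most Hnf4a lists are extreme cases, picked by that count. Hnf4a lists of the Foxa1 and Foxa2 lines come from cells that were not given Foxa3, so the count does not show joint binding in the same cells. A single member, chr6:85087400-85087764, held peaks of all 6 Hnf4a lists inside or across its 365 bp. Its iHep Hnf4a peak ranked 6 for the Foxa3 line, 78 for the Foxa2 line and 2 for the Foxa1 line, and its Foxa3 peaks ranked 100 in iHep cells and 3835 at 48 hours. It thus ranked high in the iHep Hnf4a lists of all 3 lines and was a weak early Foxa3 site. No member held 5 lists and 9 held 4.

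Of these 9, the member at chr4:131824873-131826748 had the best summed Foxa3 rank, at 133 in iHep cells and 12 at 48 hours. It held iHep Hnf4a peaks of all 3 lines, which ranked 604, 267 and 108 in the Foxa3, Foxa2 and Foxa1 lines, and a 48-hour Hnf4a peak of the Foxa2 line. The members at chr8:96695822-96698843, chr10:7382807-7383748 and chr12:102321289-102322376 also held iHep Hnf4a peaks of all 3 lines and 1 48-hour Hnf4a list each, from the Foxa1, Foxa3 and Foxa1 line. Their best Foxa3 peaks ranked 2249, 1661 and 1111 in iHep cells and 95, 1593 and 3008 at 48 hours. At the other end, 3537 members (88.4%) held no Hnf4a peak in any of the 6 lists, and the 11.6% that held one stand beside 6.24% of all merged regions. The share was 10.2% in the core regions of Foxa1 and Foxa2 and 29.0% in lasting Foxa3 regions with Foxa1 or Foxa2. It was 6.88% in iHep-only and 2.21% in 48-hour-only Foxa3-alone regions. These are raw overlaps of regions of unlike width.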

How the data were processed

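Per the labels, ChIP-seq of Foxa or Hnf4a was made from cells of each line and stage, and the authors deposited 1 peak list per sample with a score per peak. For the deposited score the formula, and for the peak calling the use of an input, are not given in the sources used here. Build mm9 and the tools bedtools 2.16.2, MACS2 2.1.0 and BWA 0.6.2 are listed, with no role, per the submitters' processing notes. Groups follow the sample titles, with 1 library per group.

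Peaks of the 6 Foxa lists were merged at an overlap of 1 bp or more, and Hnf4a peaks were counted at the same overlap. Percentiles place a peak in its own list, with high values for high scores. Shares carry Wilson and differences Newcombe intervals at 95%. Named regions follow a fixed rule: best summed Foxa3 rank (5), most Hnf4a lists (5), most iHep Foxa3 peaks (3), widest (3), longest runs (3) and the edges of the overlap rule. The members, the lists and the rule were chosen with earlier results of these data known. Merging and overlap code was tested on simulated data. No mm9 annotation was used here, so no gene is named. Computation used pandas 2.3.3, SciPy 1.17.1 and NumPy 2.4.6 in Python 3.11.15, and figures matplotlib 3.10.9.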

Additional observations from a re-analysis of the deposited data

How the results depend on the processing

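No paired analysis was possible because each group has 1 library and no result comes from a test across samples. Over 9 other ways of processing, of which 2 were chosen after seeing the data, 28 of 48 values stayed within the interval of the value reported (for the number of members, within 1.5 times of it), and 20 moved. None of the 18 values that are differences changed sign, and the others cannot. The values per length and by score group are not among these 18. Per length, members held 142 Hnf4a peaks of the Foxa3 line per Mb and iHep-only regions 207, the reverse of the raw difference. By iHep score group the differences from iHep-only regions in the 1 kb window were -1.34, -4.81, -0.946 and 1.13 points. Only the interval of the second left out 0. Autosomes only and exclusion of Foxa1 or Foxa2 peaks within 1 kb moved none of the 48 values. Removal of 3 dense Hnf4a blocks could not move the members, since none lies there, and gives 6 of the 28 values. With the upper 50% of each list there were 2011 members, the Hnf4a share was 6.71%, the differences were 4.92 points from 48-hour-only and 2.104 from iHep-only regions, 20.8% of members had more than 1 iHep peak and 67.9% had centres within 200 bp. With Foxa lists of equal length the values were 1712 members, 13.7%, 11.04% split and 64.0% within 200 bp. With peaks within 500 bp merged, the share was 11.4%, the differences 9.92 and 5.12 points, and 50.3% were split. At 50% overlap 20.4% were split and 77.6% had centres within 200 bp. With a 1 kb window, added after seeing the data, the differences were 7.32 and 0.440 points. With Hnf4a counted within 500 bp, also added, the share was 12.1% and the difference from iHep-only regions 1.346 points. The cause of these shifts was not tested, except that shorter lists hold fewer peaks. Depth is unknown and limits what the absence of a peak can mean.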
